A study of Mus musculus with 24 samples.

Results

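Small interfering RNA (siRNA) against Nts, the gene of the neuropeptide precursor neurotensin, was compared with a control siRNA in mouse granulosa cells after 4 h of human chorionic gonadotropin (hCG). It holds 4 siNTS and 4 siNC libraries, 8 of the 24 in the series, paired by the labels A_1, A_2, B_2 and B_3. The donors were C57BL/6 mice aged 23 days and primed 48 h earlier with pregnant mare serum gonadotropin (PMSG), and each pool held cells of 2 mice. The cells were transfected for 3 h with the siRNA directed at mouse Nts or with the negative control, and hCG was then added for 4 h. All 8 libraries received hCG and an siRNA. There were 3 culture dates, A_2 and B_2 sharing the middle one. The labels do not say whether A_2 and B_2 were separate pools, so the p-values measure the spread between these cultures, part of which may be technical. The A_1 pair stood apart from the other 3 by the size of its pair differences, which went with transcript length, as described at the end. Those of the A_2 pair also went with length, in the opposite direction. Results are also given without A_1, which does not leave a set free of length differences. Cells given siNTS without hCG are not among the 6 groups, so whether an effect of the siRNA needed hCG was not tested. The labels name a single siRNA against Nts, and changes that follow the loss of Nts cannot be told apart here from changes through other transcripts that the siRNA might meet.

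Neurotensin is a short secreted peptide, cut from a larger precursor by proprotein convertases at pairs of basic residues. Its known receptors are the G protein-coupled receptors encoded by Ntsr1 and Ntsr2 and the sorting receptor sortilin, encoded by Sort1. In ovulation, luteinizing hormone or its stand-in hCG acts on granulosa cells and sets off a programme of growth factor, prostaglandin, matrix and steroid genes, and Nts is among the genes known to rise in granulosa cells at that time.

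The stretch of the Nts coding sequence that specifies the mature peptide is shown because it identifies the product whose transcript the siRNA was directed at. It is taken from transcript Nts-201 of the GENCODE M21 annotation on GRCm38, where Nts lies on the minus strand at chr10:102481756-102490486. That transcript is 1248 bases long in 4 exons. The 75 bases are codons 140 to 164 of 169, and capitals mark the 13 codons (150 to 162) of neurotensin, between the flanking codons for basic residues. Where the siRNA itself matches the transcript is not stated in the sources used here.

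Nts, sense strand: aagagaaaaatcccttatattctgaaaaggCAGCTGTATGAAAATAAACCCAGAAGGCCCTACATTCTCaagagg

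Nts fell under all 4 labels. Abundance is given in CPM, counts per 1 M counts of a library, scaled by the trimmed mean of M values over the 24 libraries. In siNC cells Nts was at 16.1 CPM under A_1, 28.7 under A_2, 22.9 under B_2 and 180 under B_3. In siNTS cells it was at 1.99, 4.39, 4.16 and 42.9 CPM under the same labels. The siNTS level was 12.3%, 15.3%, 18.2% and 23.8% of the paired siNC level. Within every pair the siNTS library was lower, but the groups overlapped, because Nts in the B_3 culture was higher with siNTS than in the other 3 cultures without it. The fitted log2 fold change was −2.52 ± 0.15 (SE, n = 4 pairs), with an adjusted p of 0.0053 by edgeR's quasi-likelihood test with the label as a block and Benjamini-Hochberg adjustment over all genes tested. The call did not hold without the label block (log2 fold change −2.22, adjusted p = 1.00), nor in fits of all 24 libraries with the block (−2.46, adjusted p = 0.053) or without it (−2.22). It was also lost without label B_2 (−2.55, adjusted p = 0.0535). Without label A_1 it was −2.31 (adjusted p = 1.41e-09), in a fit with 2 residual degrees of freedom, described at the end. An exact two-sided sign-flip test of the 4 pair differences gave p = 0.125, the smallest that 4 pairs allow. For scale, Nts averaged 5.68 ± 3.6 CPM (SD, n = 4) in siNC cells kept 4 h without hCG, 61.9 ± 78.9 with hCG, and 13.3 ± 19.7 with hCG and siNTS.

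Besides Nts, a single gene passed. Of 14276 genes tested, 2 were lowered at an adjusted p under 0.05, which is 0.014%, and 0 were raised, which is 0%. At an unadjusted p under 0.05, edgeR gave 223 genes lower (1.56%) and 105 higher (0.736%). DESeq2 called 17 lowered and 4 raised genes, and limma-voom called 2 lowered and 0 raised. The second gene was Capn10, calpain 10, a member of the calpain family of cysteine proteases. With siNC, Capn10 was at 35.5 CPM under A_1, 31.8 under A_2, 34.3 under B_2 and 31.5 under B_3. With siNTS it was at 14.1, 16.7, 14.7 and 15.5 CPM in that order. The groups did not overlap, and the level was 33.3 ± 1.94 CPM in siNC and 15.2 ± 1.13 in siNTS (SD, n = 4 each), a log2 fold change of −1.13 ± 0.09 with an adjusted p of 0.023. In cells without hCG at 4 h, Capn10 was at 34.9 ± 1.1 CPM. The Capn10 call was lost without label B_2 (adjusted p = 0.335) and without label B_3 (adjusted p = 0.316), at similar log2 fold changes of −1.10 and −1.16, and it passed without label A_1 at −1.05.

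**Figure D1:**
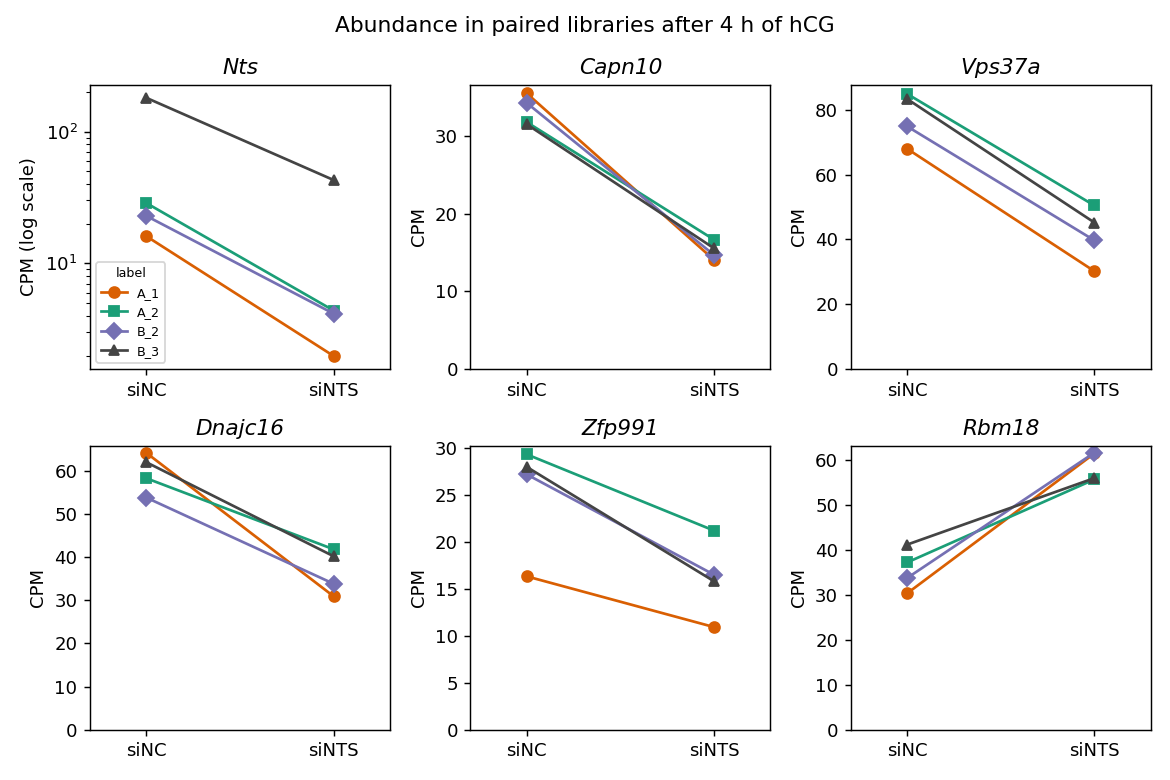
Abundance in CPM of 6 genes in the siNC and siNTS libraries after 4 h of hCG; lines join libraries of the same label, and the Nts axis is logarithmic. Capn10 lies between 31.5 and 35.5 CPM in siNC and between 14.1 and 16.7 in siNTS, while the Nts levels of B_3 sit above those of the other labels in both groups.

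The next genes by p-value were taken to fill each direction to 10 genes, under the conditions that all 4 pairs moved the same way and the higher group averaged at least 5 CPM. They did not pass and are given as values. Among the lower genes, Vps37a, a subunit of the ESCRT-I complex that sorts ubiquitinated membrane proteins into endosomes, was closest to the threshold. Vps37a was at 68.0, 85.0, 74.9 and 83.4 CPM in siNC and at 30.2, 50.5, 39.7 and 45.2 CPM in siNTS, in the label order A_1, A_2, B_2 and B_3. Vps37a groups did not overlap either, and the log2 fold change was −0.93 ± 0.09 with an adjusted p of 0.0508. Vps37a passed with RLE size factors (adjusted p = 0.0437), without a filter on low counts (0.00338), in the fit of all 24 libraries with the block (0.000544), with DESeq2, with both times fitted together and without label A_1. It did not pass in the other 8 alternatives, among them no label block (1.00), the culture date as block (0.199), and without A_2 (0.132), B_2 (0.617) or B_3 (0.837). Among the other 18 ESCRT and endosomal sorting genes tested, log2 fold changes reached at most 0.20, that of Chmp2b, and 15 of the 19 listed genes lay above 0.

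Dnajc16, a J-domain co-chaperone of the endoplasmic reticulum, was at 64.2, 58.3, 53.9 and 62.1 CPM in siNC and at 31.0, 41.9, 33.9 and 40.2 CPM in siNTS. The groups did not overlap, and the log2 fold change was −0.71 ± 0.11 (adjusted p = 0.43). Dnajc16 passed in 4 of 14 alternatives, among them all 24 libraries with the block (adjusted p = 0.0191), and not in the other 10. Sgms2, which makes sphingomyelin at the plasma membrane, averaged 84.7 ± 8.65 CPM in siNC and 57.6 ± 7.41 in siNTS, a log2 fold change of −0.56 ± 0.09. Norad, a long non-coding RNA that binds Pumilio proteins, averaged 305 ± 15.1 CPM and 216 ± 12.3 CPM, a log2 fold change of −0.50 ± 0.08. All 4 siNC values of Norad, from 285 to 321 CPM, lay above the siNTS values, from 199 to 229.

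Bloc1s5, a subunit of the BLOC-1 complex for lysosome-related organelles, had a log2 fold change of −0.71 ± 0.12, from 18.1 ± 4.23 to 11.1 ± 2.8 CPM. Ubxn2a, a UBX-domain cofactor of the p97 ATPase, had a log2 fold change of −0.44 ± 0.07. Btg2, an anti-proliferative factor that recruits the CCR4-NOT deadenylase, was at 99.4 ± 15.2 CPM in siNC, 71.6 ± 15.6 in siNTS and 60.3 ± 10.3 in cells without hCG, with a log2 fold change of −0.49 ± 0.08 between the siRNAs. The remaining lower genes were the zinc finger genes Zfp991 (−0.65 ± 0.08) and Zfp984 (−0.67 ± 0.10), described further on with their neighbours.

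On the higher side the largest log2 fold change belonged to Rbm18, which encodes a protein with an RNA recognition motif. Rbm18 was at 30.3, 37.2, 33.7 and 41.2 CPM in siNC and at 61.5, 55.7, 61.7 and 56.0 CPM in siNTS. Every siNTS value lay above every siNC value, and the log2 fold change was 0.73 ± 0.11 (adjusted p = 0.43). Rbm18 was the only raised gene that passed when the 4 h and 12 h libraries were fitted together, with an adjusted p of 0.0303; it also passed with DESeq2 and without label A_1, and not in the other 11 alternatives.

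Id2, an inhibitor of basic helix-loop-helix transcription factors, was at 32.8, 49.2, 40.2 and 46.3 CPM in siNC and at 53.6, 64.4, 58.0 and 56.2 CPM in siNTS, a log2 fold change of 0.47 ± 0.09. In cells without hCG, Id2 was at 82.7 ± 16.5 CPM, above both hCG groups. Osbp, which moves sterol between the endoplasmic reticulum and the Golgi, averaged 66.6 ± 5.97 CPM in siNC and 93.7 ± 12.4 in siNTS, a log2 fold change of 0.48 ± 0.09. Crk, an adaptor protein of growth factor and adhesion signalling, averaged 220 ± 12.5 and 300 ± 48.9 CPM (0.43 ± 0.09). Slc25a40, a mitochondrial carrier for glutathione, had a log2 fold change of 0.59 ± 0.16, and its pair differences ran from 0.28 under B_3 to 1.22 under A_1.

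The other 5 higher genes had log2 fold changes from 0.27 to 0.34. They were Ryk, a Wnt-binding receptor-like kinase, Ssx2ip, a protein of centrosomes and cell junctions, Rnf2, a ubiquitin ligase of Polycomb repressive complex 1, Zfp280b, a zinc finger gene, and Flvcr1, a membrane transporter. Their pair differences ran from 0.20 to 0.58. Group levels did not overlap for 6 of the 10 lower and 8 of the 10 higher genes. Over all 14276 genes, levels of the groups did not overlap for 95, which is 0.665%. The same direction in all pairs was a condition of the choice and is not a result. Choice by small p in the same libraries also favours groups that do not overlap, so that count is not a result either.

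**Figure D2:**
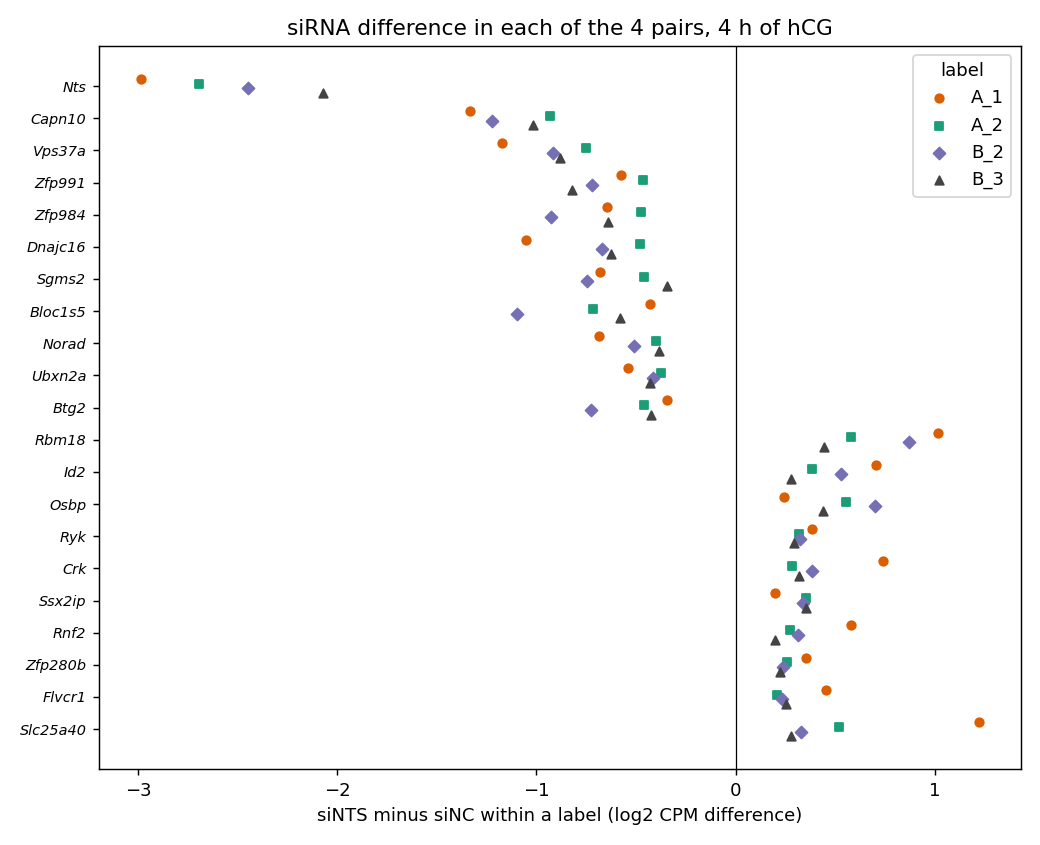
Difference in log2 CPM, siNTS minus siNC, within each of the 4 labels for Nts and the 20 other genes. Pair differences of Nts run from −2.99 under A_1 to −2.07 under B_3, and A_1 gave the most extreme value for several genes, among them Dnajc16 and Slc25a40.

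The same siRNAs were measured after 12 h of hCG in 8 other libraries, which had no part in choosing these genes but share the labels, the culture dates and the siRNA. At 12 h, 130 of 14943 genes were lowered (0.87%) and 69 were raised (0.462%), from a fit of 16 libraries with a block for each label at each time. That fit takes its spread from the 4 h libraries as well. The adjusted p-values at 12 h are therefore not independent of the choice, which favoured genes with little spread at 4 h. All 10 lower genes had negative log2 fold changes at 12 h and 9 passed, the exception being Btg2 (−0.48 ± 0.13, adjusted p = 0.128). All 10 higher genes had positive ones and 9 passed, the exception being Zfp280b (0.30 ± 0.07, adjusted p = 0.0978). The median log2 fold change of the lower genes was −0.66 at 4 h and −0.97 at 12 h, and that of the higher genes 0.39 and 0.63. The estimate was farther from 0 at 12 h for 9 of the 10 lower and all 10 higher genes.

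Capn10 fell from 34.6 ± 3.59 to 13.5 ± 1.87 CPM at 12 h, a log2 fold change of −1.35 ± 0.11 (adjusted p = 0.00032). Vps37a fell from 89.7 ± 11.8 to 39.7 ± 10.3 CPM (−1.20 ± 0.10). Sgms2 fell from 142 ± 17.4 to 72.8 ± 4.11 CPM, and Norad from 317 ± 21 to 176 ± 24.7. Rbm18 rose from 23.2 ± 1.45 to 41.2 ± 2.48 CPM (0.83 ± 0.09, adjusted p = 0.00149), Id2 from 76.7 ± 10.5 to 124 ± 19.1 and Ryk from 54.5 ± 2.73 to 92.2 ± 9.71 CPM. Nts itself averaged 3.85 ± 3.92 CPM in siNC and 0.771 ± 1.31 in siNTS at 12 h, a log2 fold change of −2.60 ± 0.34 (adjusted p = 0.00421).

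No difference between the times passed. The difference of the siRNA effects, 12 h minus 4 h, gave 0 of 14943 genes (0%) at an adjusted p under 0.05 by edgeR, with 627 at an unadjusted p under 0.05. The smallest adjusted p over all genes was 0.658. Zfp991 among the lower genes and Ryk among the higher genes had the smallest unadjusted p-values of this difference, each with an adjusted p of 0.658 by edgeR. Without label A_1, 1 gene passed.

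**Figure D3:**
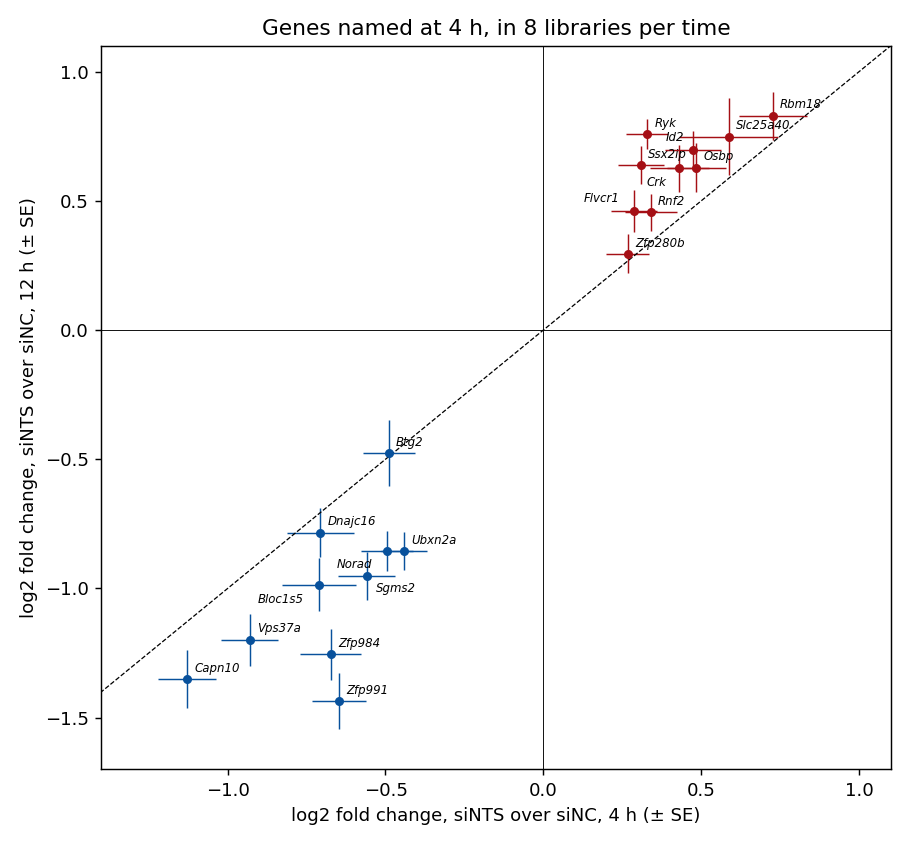
Fitted log2 fold change of siNTS over siNC at 4 h (horizontal) and 12 h (vertical) for the 10 lower genes (blue) and the 10 higher genes (red) chosen at 4 h; bars are ± SE and the dashed line marks equal values. All 20 points keep their sign at 12 h, and the median of the lower genes goes from −0.66 to −0.97.

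The genes called at 12 h were also looked up at 4 h. Of the 130 genes lowered at 12 h, 127 were tested at 4 h, 126 of these were lower there and 70 were lower at an unadjusted p under 0.05. Their median log2 fold change was −0.22 at 4 h and −0.55 at 12 h. Of the 69 raised at 12 h, 60 were higher at 4 h and 29 were higher at an unadjusted p under 0.05, with medians of 0.16 and 0.45. Over all 14276 genes tested at both times, 61.2% had the same sign, with a Pearson r of 0.23 across genes, which are not independent replicates.

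Several such genes carry values at both times, and they were chosen here after their values were seen. Ednra, the endothelin receptor type A, was at 12.9, 14.1, 15.4 and 16.3 CPM in siNC and at 7.37, 10.2, 7.56 and 12.4 CPM in siNTS at 4 h. The groups did not overlap, with a log2 fold change of −0.67 ± 0.12 (adjusted p = 0.634) at 4 h and −0.86 ± 0.13 (adjusted p = 0.00717) at 12 h. Ell2, a transcription elongation factor, was lower in every pair at 4 h, with pair differences from −0.82 to −0.38 and a log2 fold change of −0.50 ± 0.10, and fell at 12 h (−0.95 ± 0.10, adjusted p = 0.00127). Sspn, sarcospan of the dystrophin complex, had a log2 fold change of −0.43 ± 0.09 at 4 h and fell at 12 h (−1.25 ± 0.10). Pcsk6, a proprotein convertase, fell at 12 h (−0.90 ± 0.13, adjusted p = 0.00657), whereas its estimate at 4 h was −0.09 ± 0.12. The difference for Pcsk6 had an adjusted p of 0.709.

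Zfp991 and Zfp984 lie in a run of zinc finger genes on chromosome 4. The annotation of GRCm38 places 16 zinc finger genes of the count table in the run from Zfp990 to Zfp933, at chr4:145510759-147848366, and 8 of them had enough counts to test. This region was chosen after the values were seen. Zfp991 and Zfp984, picked by small p in these libraries, are counted among the 8. The 4 h counts and median of the run are therefore not independent of that choice. All 8 lay below 0 at 4 h, 5 at an unadjusted p under 0.05 and 0 at an adjusted p under 0.05, with a median log2 fold change of −0.45. At 12 h, 6 of the 8 were lowered and the median of all 8 was −1.03. Of 603 zinc finger genes tested elsewhere, 328 lay below 0 at 4 h and 10 were lower at an unadjusted p under 0.05, with a median of −0.01. At 12 h, 12 of those 603 were lowered and 1 raised, with a median of −0.04.

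Zfp991 was at 16.3, 29.3, 27.2 and 27.9 CPM in siNC and at 10.9, 21.2, 16.5 and 15.8 CPM in siNTS at 4 h. At 12 h it fell from 41.4 ± 5.42 to 15.6 ± 4.28 CPM (−1.44 ± 0.11, adjusted p = 0.00032). Zfp984 went from 14.5 ± 2.37 to 9.06 ± 1.47 CPM at 4 h and fell by 1.26 on the log2 scale at 12 h. Zfp992 (−0.48 ± 0.12) and Zfp993 (−0.50 ± 0.13) had similar estimates at 4 h, and both fell at 12 h. Zfp933, at the end of the run, was at 13.8 CPM in siNC and 13.5 in siNTS (−0.05 ± 0.11). Genes of this run are close copies of each other, and the authors' estimated counts can pass reads between copies. The value of any single member is therefore uncertain, and the members are not independent observations.

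Of 35 ovulatory mediator genes tested, 0 passed, and 2 were lower and 0 higher at an unadjusted p under 0.05. The shares over all genes at that p were 1.56% lower and 0.736% higher. The median log2 fold change was −0.01 against 0.00 over all genes. Ptgs2, the cyclooxygenase of ovulatory prostaglandin synthesis, was at 52.97, 78.0, 48.4 and 218 CPM in siNC and at 33.0, 65.5, 44.4 and 174 CPM in siNTS. It was lower in every pair, although the groups overlapped widely (−0.35 ± 0.10, adjusted p = 1.00). Without label A_1, Ptgs2 passed (−0.23, adjusted p = 0.0395), as did Tnfaip6 of the cumulus matrix (−0.30, adjusted p = 0.0344). Vcan, the matrix proteoglycan versican, passed there as raised (0.28, adjusted p = 0.0416). Has2, the hyaluronan synthase of that matrix, had the lowest estimate of the list (−0.36 ± 0.24) at 1.00 to 3.83 CPM in siNC. With A_2, B_2 or B_3 left out instead of A_1, no gene other than Capn10 and Nts passed, in this list or those below.

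The progesterone receptor gene Pgr was at 69.7, 74.7, 37.7 and 136 CPM in siNC and at 55.7, 81.3, 41.8 and 136 in siNTS, a log2 fold change of −0.01 ± 0.10. Areg, an epidermal growth factor-like ligand, had an estimate of 0.10 ± 0.10, and Star, which delivers cholesterol to the inner mitochondrial membrane, −0.07 ± 0.07. These do not show that the genes were equal in the groups. Of 26 preovulatory granulosa genes 1 was lower at an unadjusted p under 0.05, Ccnd2, a D-type cyclin (−0.24 ± 0.08). Of 21 steroid synthesis genes and 24 cholesterol synthesis genes, 0 were past an unadjusted p of 0.05. The hCG receptor gene Lhcgr was at 9.77 to 28.1 CPM in siNC and 9.48 to 29.5 in siNTS (−0.06 ± 0.08).

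The neurotensin receptor genes were at or near 0 CPM. Ntsr1 was at 0 in all 4 siNC libraries and in 3 siNTS libraries, and Ntsr2 was at 0 in all but 1 of the 8 libraries. Sort1 was at 45.3, 67.7, 49.1 and 65.5 CPM in siNC and at 33.7, 75.4, 67.3 and 67.6 in siNTS (0.06 ± 0.14), with the A_1 pair lower and the other pairs higher. Among 12 tested genes of neurotensin, its receptors and peptide processing, Nts passed at 4 h, and Nts and Pcsk6 passed at 12 h.

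Interferon-stimulated genes had the lowest median of the 24 gene groups described by list. Of 35 tested, 31 lay below 0, 8 were lower and 0 higher at an unadjusted p under 0.05, and 0 passed. Their median log2 fold change was −0.27. For comparison, 7150 of all 14276 genes were above 0, and 1.56% were lower at an unadjusted p under 0.05. Rsad2, which encodes the antiviral enzyme viperin, was at 4.09, 13.8, 16.3 and 6.46 CPM in siNC and at 3.52, 6.38, 7.93 and 4.03 CPM in siNTS. It was lower in every pair while the groups overlapped (−0.80 ± 0.15, adjusted p = 0.656), and it fell at 12 h (−1.54 ± 0.20, adjusted p = 0.00399). Rsad2 was the only 1 of the 35 that passed at 12 h, where their median was −0.23.

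Ifit1 and Ifit3, RNA-binding antiviral proteins, had estimates of −0.71 ± 0.19 and −0.83 ± 0.27, at 1.69 and 2.23 CPM on average in siNC. Their A_1 pair differences were 0.03 and 0.02, while the other pairs lay between −0.94 and −0.59 for Ifit1 and between −1.65 and −0.26 for Ifit3. Without label A_1, Rsad2, Ifit1, Ifit3, Usp18 and Irf7 passed. None of the list passed when A_2, B_2 or B_3 was left out. The median over the interferon genes was −0.01 in the A_1 pair, −0.17 in A_2, −0.43 in B_2 and −0.13 in B_3. Leukocyte markers were low in both groups: the 15 genes summed to 24.5 to 31.1 CPM in siNC and 22.5 to 30.8 in siNTS, and Ptprc and Adgre1 lay between 0.10 and 0.78 CPM in every library. Adgre1 had an estimate of −0.80 ± 0.26 (adjusted p = 1.00); the part of leukocytes in the interferon result was not tested, and fewer such cells and less RNA per cell cannot be told apart in bulk libraries.

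Cytokine and NF-kB target genes gave 3 of 19 lower and 0 higher at an unadjusted p under 0.05, against 1.56% lower over all genes. These were Lif, Cxcl1 and Ptgs2, and the median of the list was −0.07. The estimate of Cxcl1, a neutrophil chemokine, was −1.72 ± 0.51 and rested on the B_3 culture. Cxcl1 was at 19.3 CPM in siNC and 2.58 in siNTS under B_3, and between 0.251 and 0.628 CPM in the other 6 libraries. Without label A_1 it passed (−2.17, adjusted p = 0.00638), and at 12 h its estimate had the opposite sign (1.34 ± 0.52, adjusted p = 0.334). The difference between the times had an adjusted p of 0.785 by edgeR.

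Genes of heat shock and oxidative stress lay mostly above 0. Of 22 tested, 21 were above 0, 2 were higher at an unadjusted p under 0.05 and 0 passed, with a median of 0.08. Over all genes, 7150 of 14276 were above 0, and 0.736% were higher at an unadjusted p under 0.05. The median of the 22 was 0.06 in the A_1 pair, 0.03 in A_2, 0.28 in B_2 and 0.11 in B_3. Gsr, glutathione reductase, was at 214, 161, 202 and 197 CPM in siNC and at 243, 179, 246 and 233 in siNTS (0.21 ± 0.07), higher in every pair, and it rose at 12 h (0.35 ± 0.06, adjusted p = 0.0205). Gclm, the modifier subunit of the enzyme that begins glutathione synthesis, had an estimate of 0.22 ± 0.08. Without label A_1, Gsr, Gclm, Gclc and Hspa1b passed. None of these genes passed when A_2, B_2 or B_3 was left out.

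Among the remaining lists, 23 of the 24 gene groups had medians within 0.1 of 0 on the log2 scale, and the group with Nts was the only one in which a gene passed at 4 h. Of 15 genes of the RNA interference machinery, 1 was lower and 0 higher at an unadjusted p under 0.05, against 1.56% lower over all genes. In this list 0 passed, and the median was −0.07. The lower one, the Argonaute gene Ago3, had an estimate of −0.30 ± 0.10 at 4 h and fell at 12 h (−0.82 ± 0.13, adjusted p = 0.00952). Tnrc6a, which encodes a partner of Argonaute proteins, had an estimate of 0.25 ± 0.15 and passed as raised without label A_1 (0.46, adjusted p = 0.00076). Its A_1 pair difference was −0.38, and at 12 h its estimate was 0.26 (adjusted p = 0.659 by edgeR). The longest Tnrc6a transcript has 8183 bases, and long transcripts among such calls are described at the end.

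**Figure D4:**
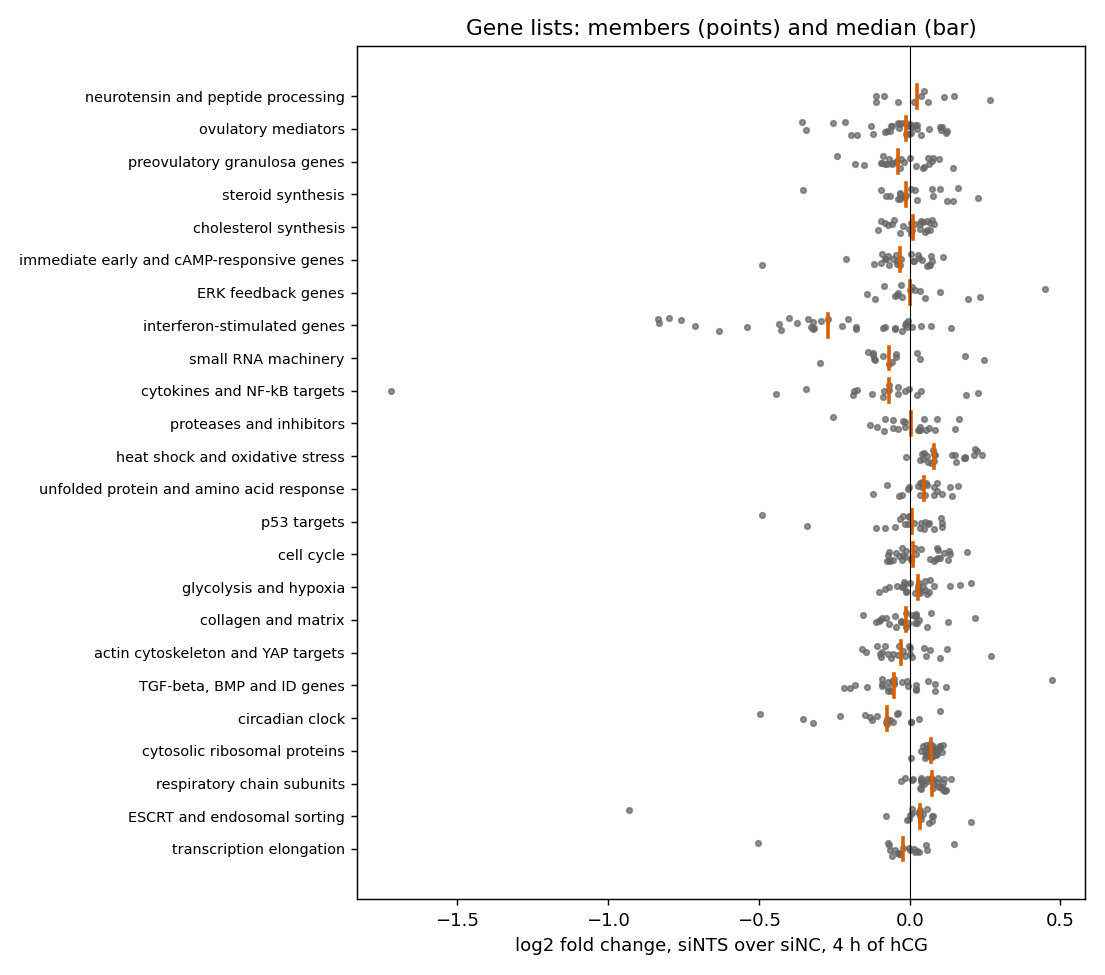
Log2 fold change of siNTS over siNC at 4 h for the tested members (points) of 24 gene lists, with the list median as an orange bar; Nts at −2.52 lies off the axis and is not drawn. The interferon-stimulated list has the lowest median, −0.27, and isolated low points are Cxcl1 at −1.72 and Vps37a at −0.93.

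The cells had the profile of granulosa cells in both groups. The 10 granulosa markers summed to 2409 to 2977 CPM in siNC and 2323 to 3431 in siNTS, and 0 of them were past an unadjusted p of 0.05. The theca markers Cyp17a1 and Insl3 reached at most 0.93 CPM. The whole list of 8 theca and interstitial genes, however, summed to 228 to 344 CPM in siNC and 240 to 340 in siNTS. The 9 surface epithelium genes summed to 196 to 312 CPM in siNC and 181 to 356 in siNTS, with Upk3b and Msln at most 0.38 CPM. Haemoglobin and other erythrocyte transcripts varied with the culture, from 303 to 3050 CPM in siNC and 328 to 2809 in siNTS, and went from 1602 to 2809 CPM within the A_1 pair. Oocyte markers went from 10.04 to 29.4 CPM within the B_2 pair and from 25.5 to 15.6 within A_1. Their part in the results was not tested. The depth of the 8 libraries was 35.5 M to 45.4 M estimated counts.

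The A_1 pair stood apart from the other pairs. Over 10560 genes at a mean of at least 2 log2 CPM and with an annotated transcript length, the SD of the pair difference was 0.376 log2 units under A_1, 0.154 under A_2, 0.170 under B_2 and 0.141 under B_3. In the A_1 pair the difference went with the length of the longest transcript, with a Spearman rho across genes of −0.654, against 0.514 in A_2, 0.231 in B_2 and 0.051 in B_3. With genes in 5 equal bins of transcript length, the median difference of the shortest bin was 0.385 under A_1 and −0.107 under A_2, and that of the longest bin −0.402 and 0.114.

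Genes with short transcripts showed this as groups. The median of 35 cytosolic ribosomal protein genes was 0.56 in the A_1 pair, −0.21 in A_2, −0.04 in B_2 and 0.01 in B_3, and that of 28 respiratory chain genes 0.51, −0.15, −0.04 and −0.02. All 35 ribosomal protein genes lay above 0 in the fit of the 4 pairs, with a median of 0.07, and the median was −0.08 without label A_1. Collagen and matrix genes had a median of −0.51 in A_1 and 0.18, 0.22 and 0.03 in the other pairs. The siNTS library of A_1 departed most from its group, with an SD of 0.560 log2 units against the other 3 siNTS libraries. The other 7 libraries had 0.201 to 0.412. Departures that went with transcript length were not confined to A_1. Their Spearman rho with length was −0.586 for siNTS A_1, 0.534 for siNTS A_2, 0.503 for siNTS B_3 and −0.530 for siNC B_2. The remaining libraries lay between −0.323 and 0.425, so leaving out A_1 does not leave a set free of length differences. Across genes, the A_1 pair difference ran against that of A_2 (Pearson r = −0.538), while A_2 and B_2, of the same date, had r = 0.471.

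**Figure D5:**
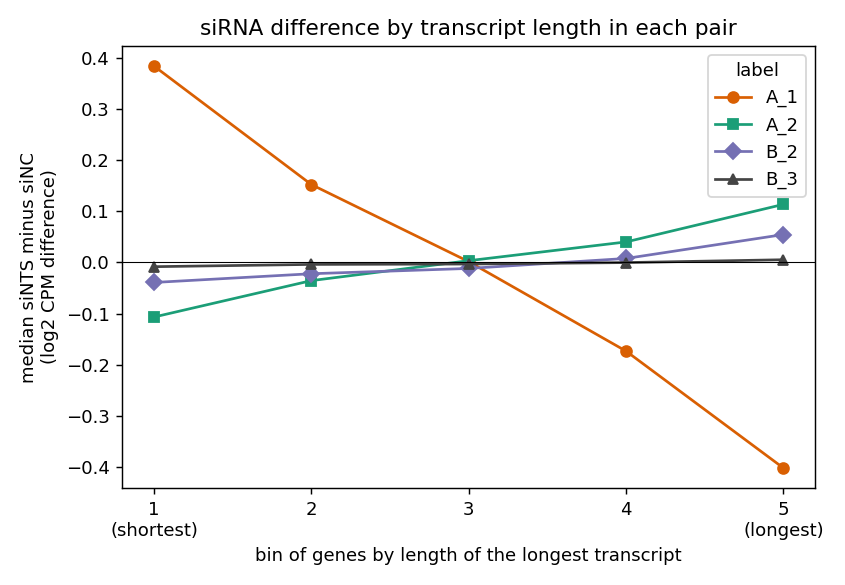
Median difference in log2 CPM, siNTS minus siNC, for genes in 5 equal bins of longest-transcript length, in each of the 4 label pairs. The A_1 line goes from 0.385 to −0.402 from the shortest to the longest bin, and the A_2 line from −0.107 to 0.114.

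Without the A_1 pair many more genes passed. Of 14389 genes tested in the 6 remaining libraries, 94 were lowered (0.653%) and 136 raised (0.945%). A_2 and B_2 share a culture date, so the remaining pairs were not all from separate dates. The fit had 2 residual degrees of freedom, and its prior degrees of freedom went from 4.47 to 12.6. Its spread was therefore drawn mostly from all genes together. It put 2167 genes at an unadjusted p under 0.05 by edgeR, against 328 in the fit of the 4 pairs. All 20 named genes passed in the fit without A_1, which shares 6 of its libraries with the fit that chose them. The raised genes had long transcripts, with a median of 7567 bases against 3420 over all genes tested, whereas the median of the lowered genes was 3583. Of the 136 raised genes 33 were above 0 in the A_1 pair, and 86 were higher at 12 h, 25 of them called there. Of the 94 lowered genes, 91 were lower at 12 h and 55 were called there. Over all genes tested without A_1, 7140 of 14245 were above 0 in the A_1 pair. At 12 h, 7180 of 14355 had the same direction, and 181 were called in it. The long-transcript genes given next, from among the raised, were chosen after their values were seen. Akap9 and Cenpf had log2 fold changes of 0.36 each without A_1, and 0.02 and 0.04 in the 4 pairs. At 12 h they were −0.21 and −0.14, and neither passed (adjusted p = 0.815 and 0.887 by edgeR). Rad54l2 and Itga2 had 0.45 each without A_1, and 0.31 and 0.25 in the 4 pairs. At 12 h both passed by edgeR (0.64, adjusted p = 0.0144, and 0.71, adjusted p = 0.0355). The part of transcript length in these calls was not tested.

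The authors' deposited table of this comparison lists 14362 genes and marks 17 as raised and 43 as lowered. For 55 of these 60 genes a value was also obtained here. All 55 had the same direction, 53 had an unadjusted p under 0.05 and 2 passed. Both sets of values come from the same libraries, so the shared direction and small p-values are not a separate check. Of the 20 genes named beside Nts, 14 are marked in the authors' deposited table. The authors' deposited table gives Nts a log2 fold change of −2.55 with an adjusted p of 0.000338, and Vps37a −0.93 with an adjusted p of 3.63e-06. Adjusting the p-values of the authors' deposited table by Benjamini-Hochberg over that comparison alone leaves 3 genes, Capn10, Vps37a and Dnajc16, and gives Nts an adjusted p of 0.102. Adjusting them over all 4 deposited comparisons pooled leaves 43 of this comparison.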

How the data were processed

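Poly(A) RNA of 8 granulosa cell cultures, 4 with siNTS and 4 with siNC after 4 h of hCG, had been sequenced as stranded libraries over 151 cycles from both ends, per the labels' protocols. The authors deposited estimated counts per gene, not scaled between libraries, which were rounded to whole numbers here. The submitters' processing notes name Salmon 1.4.0, edgeR, limma and the build GRCm39; the role of each tool is not given in the sources used here. The authors also deposited tables of their comparisons with log2 fold changes, p-values and adjusted p-values, and with log2 CPM values per library that were not used.

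Genes were filtered with filterByExpr, which kept 14276 of 39253 genes holding 99.95% of the counts, and tested with edgeR 4.0.16 (R 4.3.3) by the quasi-likelihood test with TMM scaling, the replicate label as an additive block, and Benjamini-Hochberg adjustment at 0.05. Per the titles, libraries of the same label share a culture date, with A_2 and B_2 on 1 date, and deviations from the group means of same-label libraries correlated at 0.655 to 0.909 over 10764 genes. Standard errors are the log2 fold change over the root of F. Pair differences are in log2 CPM with a prior count of 2. None of the 12 within-group pairs of libraries looked like a repeat deposit (chi-square over its degrees of freedom 39.2 to 341). Coordinates and transcript lengths are from GENCODE M21 on GRCm38, matched by symbol, and the files' build differs. DESeq2 1.42.0, limma-voom (limma 3.58.1), other blocks, scalings and filters, and leaving out each label were alternatives; the 16-library fit of 4 h and the re-adjustment of the authors' p-values were added after seeing the data. The fit was checked on simulated data. Genes named were Nts, then up to 10 per direction that passed with the same sign in all 4 pairs and a higher-group mean of 5 CPM or more, without predicted-gene names, filled to 10 by smallest p, and in each list the members with the smallest p. The members and lists were chosen with earlier results of these data known. The 8 libraries held 35.5 M to 45.4 M counts, and the precision given is that of the spread between 4 pairs.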

Additional observations from a re-analysis of the deposited data

Results flagged for a closer look

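In groups of 4 libraries, a library was marked where its gap to the nearest of the others took up nearly the whole range of the group; 42 groups were tested and 5 were marked, and chance marks about 1 in 20. Nts stood far above the other 3 libraries in the B_3 culture, at 180 CPM with siNC and at 42.9 CPM with siNTS. Zfp991 was lowest under A_1 in siNC, at 16.3 CPM. Osbp was lowest under A_1 in siNTS, at 75.1 CPM. Zfp280b was lowest under B_3 in siNC, at 88.9 CPM.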

How the results depend on the processing

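The direction of Nts and of the 20 other named genes held under every alternative run. Their pair differences had the same sign under all 4 labels, which was a condition for choosing the 20. The alternatives could therefore hardly reverse it. The replicate block matters: without it 1 gene was lowered and 0 raised, and the log2 fold change of Nts was −2.22, not past the threshold. All 24 libraries gave −2.46 for Nts with the block and −2.22 with 1 lowered gene without it. The count of raised genes was 2 without a filter on low counts, 4 with DESeq2 and 1 with both times fitted together. The count of lowered genes was 17 with DESeq2 and 4 with both times together. Leaving out 1 label gave 0 to 136 raised genes, 0 to 94 lowered genes, a log2 fold change of Nts from −2.71 to −2.31, and 0 to 1 genes whose effect differed between the times. The highest counts came without A_1, the count of 0 lowered genes without B_2, and 1 lowered gene, Nts, without B_3. The cause was not tested. For the authors' table, 60 calls became 3 when adjusted over that comparison alone.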
